A study of Homo sapiens with 6 samples.

Results

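DNAJ genes encode J-domain proteins, the co-chaperones that bring unfolded proteins to Hsp70 chaperones and stimulate Hsp70 ATPase activity. The cytosol, the endoplasmic reticulum (ER) and the mitochondrion each hold their own Hsp70 and their own J-domain proteins. In liver cells the ER carries a heavy load of secreted proteins. Some ER members belong to the unfolded protein response, and some cytosolic members belong to the heat shock response. The members were chosen by symbol, as DNAJ followed by A, B or C and a number. The rule took 45 of the 20388 genes in the table. They were grouped from textbook knowledge into 5 genes of the ER lumen, 5 of the ER membrane, 14 cytosolic, 3 nuclear, 7 mitochondrial, 5 vesicle or endosome and 6 other genes.

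RNA sequencing was done on 6 libraries of wild-type MHCC-97H, an established human hepatocellular carcinoma line. Cells were exposed for 24 h either to DMSO, the solvent (3 libraries), or to GK921 at 2 µM, which blocks transglutaminase 2 (3 libraries). The labels do not tell whether the 3 libraries in each group were grown as separate cultures, so each p-value reflects library-to-library spread only, and that spread may be technical. Levels are FPKM, the fragments of a gene divided by its length and by the library's mapped fragments, which allow levels of different genes to be set side by side.

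The sources used here give no read totals, and steps between low values put the depths at 1, 0.943 and 0.871 of the deepest library in DMSO and at 0.768, 0.771 and 0.864 after GK921. Of 11 hepatocyte and liver cancer markers, 4 reached a mean of 1 FPKM, KRT8, KRT18 and HNF4A among them. ALB, AFP, APOA1, APOB, TTR and SERPINA1 were each under 1 FPKM in both group means, and GPC3 was listed at 0 throughout, so the line carried little of the secretory programme of mature hepatocytes. The sum over this list ran from 2395 to 2401 FPKM in DMSO and 1879 to 1938 FPKM after GK921. KRT8 and KRT18 made up nearly all of it, so it says little about the other markers. KRT8 fell from 1633 to 1100 FPKM, while KRT18 was at 740 FPKM in DMSO and 787 FPKM after GK921. Among 12 markers of blood, endothelial and fibroblast cells, 3 reached 1 FPKM (CD68, PECAM1 and DCN), and CDH5 was listed at 0. The endothelial and fibroblast markers summed to 10.98 to 13.47 FPKM in DMSO and 4.63 to 6.43 FPKM after GK921, with DCN falling from 8.34 ± 0.969 to 0.953 ± 0.196 FPKM (limma adjusted p = 4.16e-07), and the blood cell markers to 104.0 to 113.1 and 94.0 to 110.2 FPKM. CD68, at 109 FPKM in DMSO and 99.7 FPKM after GK921 with overlapping groups, made up nearly all of the blood cell sum. The part of these marker differences in the results below was not tested. In such bulk libraries, fewer cells of a kind and less RNA per cell cannot be told apart.

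The promoter windows of 4 members are shown because they hold a stress-response motif or, in DNAJB9, belong to the member with the largest rise. RefSeq windows (GRCh38.p14) run from 250 bases before to 50 bases after an annotated start of a gene, and 41 of the 45 members matched at least 1, giving 53 windows. These starts need not be the gene starts given below. The DNAJB9 window, for example, lies wholly past the gene start of 108569568. Capitals mark motif matches. In DNAJB9 (chr7:108569624-108569923, plus strand) they mark 2 E-boxes, CACGTG. In DNAJC10 (chr2:182716007-182716306, plus strand) they mark the reverse complement of TGACGTGG, the core of the unfolded protein response element (UPRE). In DNAJA1 (chr9:33025023-33025322, plus strand) and DNAJB6 (chr7:157336754-157337053, plus strand) they mark a heat shock element, written here as GAA, TTC and GAA with 2 bases between the blocks, or its reverse complement.
DNAJB9: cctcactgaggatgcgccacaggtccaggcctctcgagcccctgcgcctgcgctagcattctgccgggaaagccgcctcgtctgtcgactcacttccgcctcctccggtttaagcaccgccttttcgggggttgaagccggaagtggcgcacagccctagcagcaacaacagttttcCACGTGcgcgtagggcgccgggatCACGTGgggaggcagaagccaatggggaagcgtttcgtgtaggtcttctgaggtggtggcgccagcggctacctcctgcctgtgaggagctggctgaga
DNAJC10: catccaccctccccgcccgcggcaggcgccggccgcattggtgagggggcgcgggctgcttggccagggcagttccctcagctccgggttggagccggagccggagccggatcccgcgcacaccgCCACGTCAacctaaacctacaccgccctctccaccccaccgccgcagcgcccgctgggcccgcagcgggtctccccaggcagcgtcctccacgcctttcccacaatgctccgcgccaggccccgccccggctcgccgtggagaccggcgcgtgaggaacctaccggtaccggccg
DNAJA1: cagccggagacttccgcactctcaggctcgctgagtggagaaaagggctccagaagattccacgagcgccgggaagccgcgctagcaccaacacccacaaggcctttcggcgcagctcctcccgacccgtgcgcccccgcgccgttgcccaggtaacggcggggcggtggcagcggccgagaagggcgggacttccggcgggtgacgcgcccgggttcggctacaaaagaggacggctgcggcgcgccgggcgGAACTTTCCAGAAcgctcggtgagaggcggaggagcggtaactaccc
DNAJB6: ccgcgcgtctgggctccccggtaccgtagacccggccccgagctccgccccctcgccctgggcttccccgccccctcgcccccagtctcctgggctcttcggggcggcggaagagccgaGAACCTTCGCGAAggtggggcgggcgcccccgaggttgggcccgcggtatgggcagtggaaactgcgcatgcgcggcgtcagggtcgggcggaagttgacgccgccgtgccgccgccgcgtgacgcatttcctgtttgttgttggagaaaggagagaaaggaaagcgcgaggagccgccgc

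Both strands were searched in 35116 windows. The UPRE core was in 0.729% of them and, among the members, in DNAJC10. The heat shock element was in 0.49% of windows and in DNAJA1 and DNAJB6. E-boxes, palindromes that read the same on both strands, were in 7.26% of windows and in 7.55% of the member windows, those of DNAJB9, DNAJC8, DNAJC12 and DNAJC16. The endoplasmic reticulum stress element (CCAAT, 9 bases, CCACG), its second form (ATTGG, 1 base, CCACG) and the CHOP-ATF4 element TTGCATCA were in no member window, and in 0.0769%, 0.0541% and 0.866% of windows. The E2F sites TTTGGCGC or TTTCCCGC were in 2.27% of windows and in DNAJC6 and DNAJC5G. A match is a run of letters and not a measured binding site, and a lack of one says only that these letters are not in this window.

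Across the family, 36 of the 45 members had a mean of at least 1 FPKM and were tested with limma on log2(FPKM + 1). Of these, 20 rose (55.6%) and 10 fell (27.8%) at a limma adjusted p under 0.05, and 6 were not called. The background was high, since 75.9% of all 11573 tested genes were called, 46.8% higher and 29.2% lower, and the family's counts lay near those shares. A limma test against a change of 1.2-fold called 16 members higher and 4 lower, beside 49.5% of all tested genes in either direction. Its size of change stood further from the background, with 8 of 36 members (22.2%) called higher with a log2 change over 1, beside 9.87% of all tested genes, and 2 members (5.56%) called lower with a log2 change under -1, beside 6.24%. The groups did not overlap for 29 members (80.6%), beside 78% of all tested genes. The median log2 change of the tested members was 0.36, beside 0.16 for all tested genes, so subtracting 0.16 gives a change relative to the median gene. With median-ratio scaling 19 of the same 36 members were higher and 13 lower, beside 36.4% and 37.9% of all genes tested. DNAJB7 passed the 1 FPKM limit after that scaling and was called lower too, which makes 14.

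**Figure D1:**
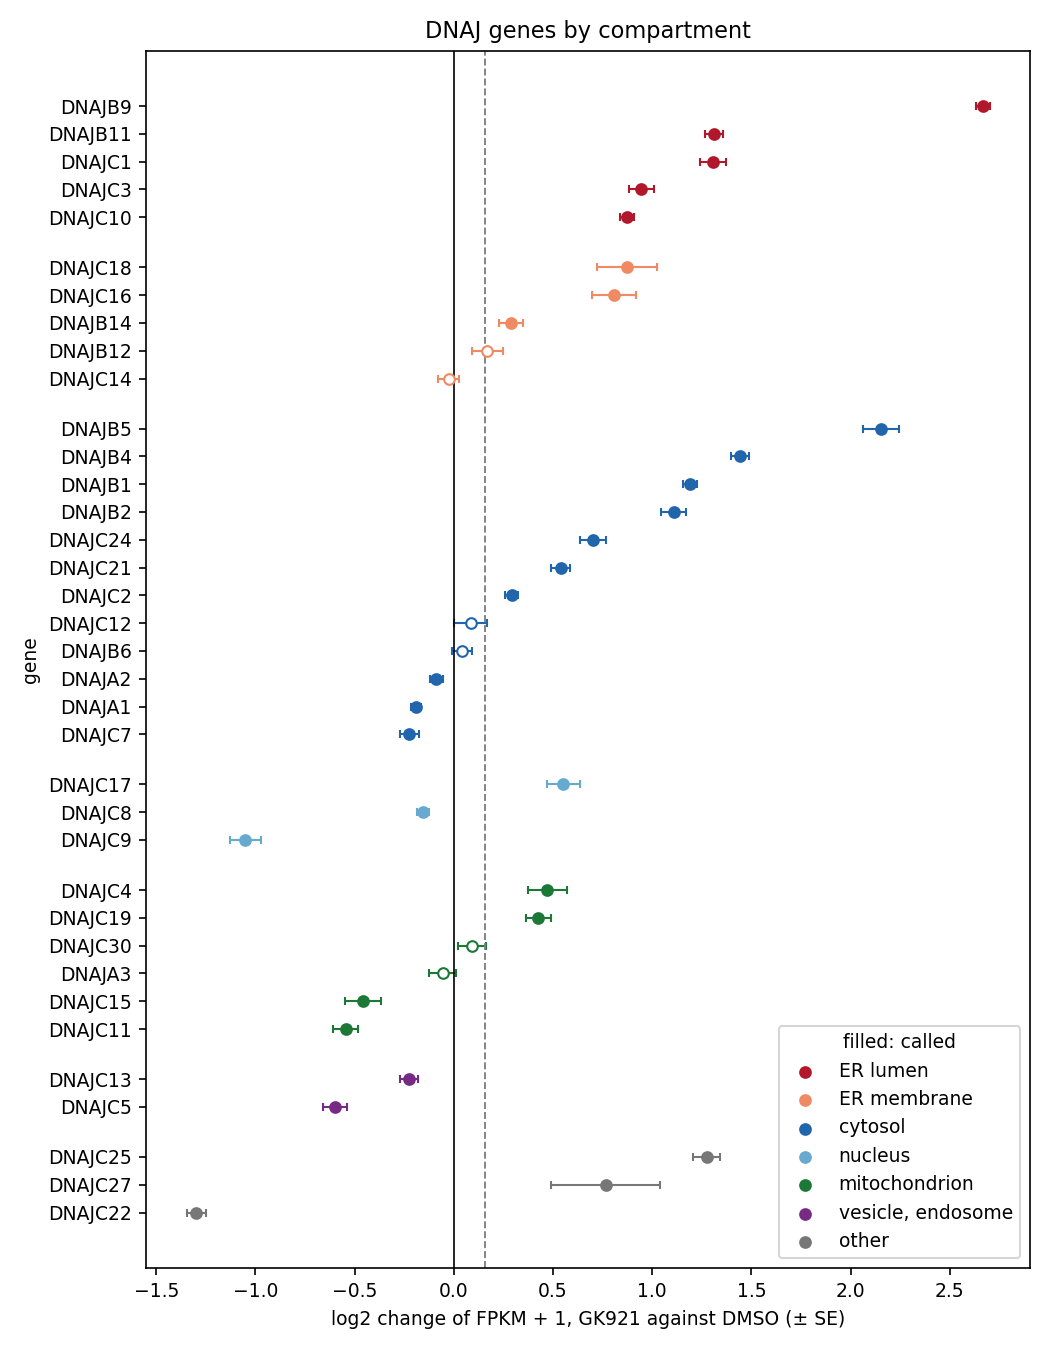
Log2 change of FPKM + 1 (x axis, GK921 against DMSO, bars ± SE) for the 36 tested DNAJ genes, in rows by compartment, with filled points for genes called at a limma adjusted p under 0.05, open points for the others and a dashed line at the median of all tested genes, 0.16. The 5 ER lumen genes lie between 0.87 and 2.67, whereas cytosolic and mitochondrial genes lie on both sides of 0.

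The 9 members that were not tested were low or silent. DNAJC5B, DNAJC5G and DNAJC25-GNG10 were listed at 0 in every library, and DNAJA4, DNAJB8, DNAJB13, DNAJC6 and DNAJC28 had group means under 1 FPKM. DNAJB7 was just outside the limit at a mean of 0.975 FPKM over the 6 libraries, with 1.94, 1.03 and 1.52 FPKM in DMSO and 1.03, 0.23 and 0.1 FPKM after GK921. DNAJC27 was just inside it at 1.09 FPKM and passed only through its GK921 libraries.

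All 5 genes of the ER lumen rose, beside 46.8% of all tested genes called higher, with a median log2 change of 1.31. The groups did not overlap for any of the 5, as for 78% of all tested genes. The ER lumen proteins work with BiP, the Hsp70 of the ER, encoded by HSPA5. DNAJB9 (ERdj4), which takes part in the degradation of misfolded proteins and holds BiP on the stress sensor IRE1, was at 97.0, 97.9 and 104 FPKM in DMSO and at 625, 654 and 632 FPKM after GK921. Every treated library was several times above every control library. The mean rose 6.39-fold, from 99.6 ± 3.74 to 637 ± 15.5 FPKM (SD, n = 3 libraries per group, as for each mean below), with a log2 change of 2.67 ± 0.035 (SE, limma adjusted p = 1.14e-10). That change lay at percentile 99.5 of all tested genes. DNAJB9 went from the 8th highest level of the family in DMSO to rank 1 after GK921.

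The gene lies on chromosome 7 at 108569568 to 108574850 (GRCh38), and its exons overlap those of PNPLA8 and THAP5 on the opposite strand. PNPLA8 also rose, from 48.0 ± 1.27 to 120.8 ± 1.72 FPKM, and THAP5 from 43.9 ± 0.889 to 94.7 ± 1.32 FPKM. The sources used here do not say whether counting used strand, so reads of the overlap cannot be told apart, and both neighbours changed by a smaller ratio than DNAJB9.

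DNAJB11 (ERdj3), a soluble co-chaperone that binds newly made secretory proteins, was at 105.8, 107.8 and 98.0 FPKM in DMSO and at 248, 266 and 264 FPKM after GK921. In DMSO its values overlapped those of DNAJB9, while after GK921 each of its values was below each DNAJB9 value. It rose 2.5-fold (log2 change 1.31 ± 0.045, limma adjusted p = 1.67e-08). Its exons overlap those of TBCCD1 on the opposite strand, a gene at 10.6 ± 0.987 FPKM in DMSO and 16.4 ± 1.3 FPKM after GK921, far below DNAJB11 in both groups.

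DNAJC10 (ERdj5), a disulfide reductase that opens misfolded proteins for export to the cytosol and whose window holds the UPRE core, was at 57.5, 56.5 and 57.0 FPKM in DMSO and at 104.9, 104.9 and 105.8 FPKM after GK921. Its libraries agreed more closely than those of the other ER lumen genes relative to the mean. It rose 1.85-fold (log2 change 0.87 ± 0.033, limma adjusted p = 3.41e-08), a smaller log2 change than that of any other ER lumen gene. DNAJC3 (P58IPK), which hands unfolded proteins to BiP and was first known as an inhibitor of stress kinases, was at 19.2, 20.9 and 18.2 FPKM in DMSO and at 38.7, 36.5 and 39.9 FPKM after GK921. Its level was nearer to that of DNAJC1 than to the other ER lumen genes, and far below that of DNAJB9, in both groups. It rose 1.97-fold (log2 change 0.95 ± 0.065, limma adjusted p = 1.40e-06). DNAJC1 (ERdj1), which spans the membrane with its J domain in the lumen and touches ribosomes on the other side, was at 17.0, 17.4 and 17.1 FPKM in DMSO and at 44.2, 40.3 and 47.5 FPKM after GK921. The treated libraries of DNAJC1 varied more than its controls, yet the lowest stood above every control. It rose 2.56-fold (log2 change 1.31 ± 0.065, limma adjusted p = 1.77e-07).

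**Figure D2:**
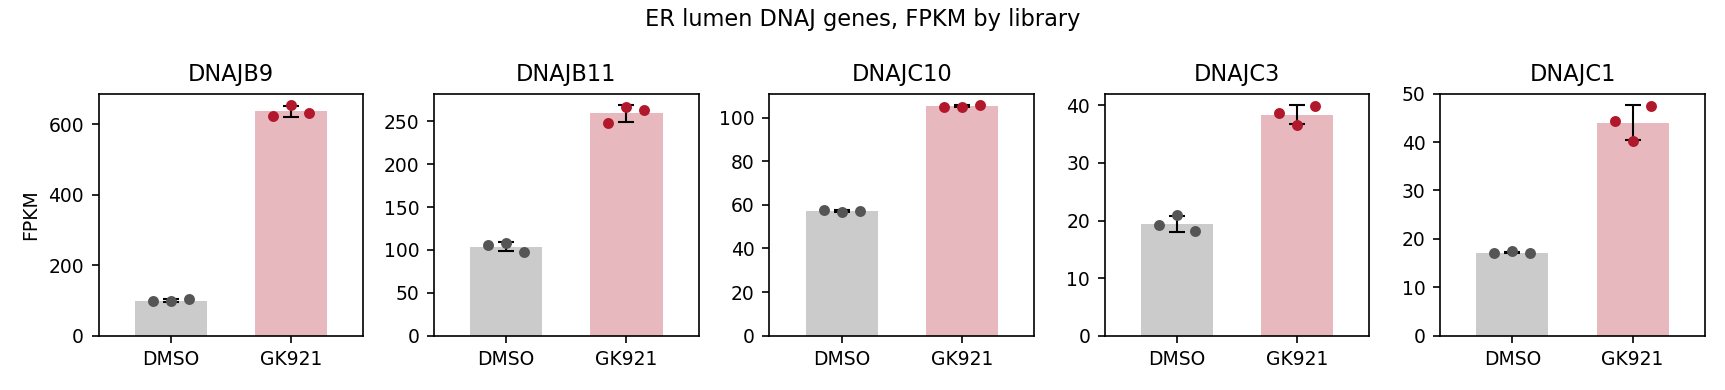
FPKM (y axis, from 0, a scale of its own in each panel) of the 5 ER lumen genes in the 3 DMSO and 3 GK921 libraries, as points, with bars for group means and whiskers for the SD. In each panel the GK921 points lie above the DMSO points, from 1.85-fold in DNAJC10 to 6.39-fold in DNAJB9.

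Of the 5 genes of the ER membrane 3 rose and none fell (2 rose and 1 fell with median-ratio scaling), beside 46.8% of all tested genes called higher and 29.2% lower. The other 2 were not called (limma adjusted p = 0.0722 for DNAJB12 and 0.67 for DNAJC14), and the median log2 change was 0.29. DNAJC18, which was low throughout, was at 1.09, 1.16 and 0.86 FPKM in DMSO and at 2.14, 3.19 and 2.93 FPKM after GK921, a 2.66-fold rise (log2 change 0.87 ± 0.15, limma adjusted p = 0.000634). DNAJC16 (ERdj8), a membrane protein with a thioredoxin-like part, was at 6.58, 6.62 and 7.47 FPKM in DMSO and at 12.3, 15.1 and 11.2 FPKM after GK921, a 1.87-fold rise. Exons of DNAJC16 overlap those of AGMAT on the opposite strand, which fell from 7.44 ± 0.623 to 3.48 ± 0.854 FPKM. DNAJB12 and DNAJB14 present their J domains to the cytosol, where they help to remove misfolded membrane proteins. DNAJB12, the most abundant of the 5, was at 30.2, 27.7 and 26.5 FPKM in DMSO and at 28.6, 33.8 and 33.1 FPKM after GK921, with overlap between the groups and a log2 change of 0.17 (-0.0017 with median-ratio scaling). It was called higher without DMSO replicate 1 (log2 change 0.22, limma adjusted p = 0.0406) and without GK921 replicate 1 (0.24, limma adjusted p = 0.0126). DNAJB14 rose 1.23-fold, from 21.4 ± 0.903 to 26.4 ± 1.36 FPKM, and lost its call with median-ratio scaling (limma adjusted p = 0.106). DNAJC14, which acts in the export of receptors from the ER, was at 23.7 ± 0.713 and 23.2 ± 0.813 FPKM, and with median-ratio scaling it was called lower (log2 change -0.20).

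Cytosolic members went both ways. Of 12 tested, 7 rose (58.3%), 3 fell (25%) and 2 were not called, beside 46.8% of all tested genes called higher and 29.2% lower. The median log2 change was 0.41. The rises with a log2 change over 1 were those of the class B genes DNAJB1, DNAJB2, DNAJB4 and DNAJB5. DNAJB6, also of class B, was not called. The class A genes DNAJA1 and DNAJA2 were called lower by small amounts, the change of DNAJA1 turning positive and uncalled with quantile normalization. Neither class A gene was called in the test against a 1.2-fold change. Whether the classes differ was not tested.

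DNAJB1 (HSP40), the heat-inducible partner of Hsp70 in pulling apart aggregates, was at 173, 170.5 and 159 FPKM in DMSO and at 381, 383 and 384 FPKM after GK921. The treated libraries lay within a few FPKM of each other. It rose 2.29-fold (log2 change 1.19 ± 0.035, limma adjusted p = 7.70e-09). DNAJB5, a close relative of DNAJB1, was at 3.5, 2.97 and 3.21 FPKM in DMSO and at 18.7, 16.1 and 18.6 FPKM after GK921. It had the largest log2 change of the cytosolic group at 2.15 ± 0.092 (5.53-fold, limma adjusted p = 6.54e-08), from a low level. DNAJB4, of the same subgroup, was at 37.9, 41.9 and 38.9 FPKM in DMSO and at 110.0, 110.0 and 108.0 FPKM after GK921, a 2.76-fold rise (log2 change 1.44 ± 0.046, limma adjusted p = 1.08e-08). DNAJB2 (HSJ1), which carries ubiquitin-binding motifs and sends proteins to the proteasome, was at 24.5, 22.4 and 20.9 FPKM in DMSO and at 51.0, 50.05 and 48.2 FPKM after GK921, a 2.2-fold rise. None of these 4 genes had overlapping groups, nor had 78% of all tested genes.

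DNAJA1, a general partner of the constitutive Hsp70 and the most abundant member in DMSO, was at 662, 650.3 and 666 FPKM in DMSO and at 567, 575 and 591 FPKM after GK921. The groups were separate but close, and the fall was 1.14-fold (log2 change -0.19 ± 0.025, limma adjusted p = 0.000105). With quantile normalization the log2 change of DNAJA1 was 0.030 and was not called (limma adjusted p = 0.24). GENCODE names 6 pseudogenes of DNAJA1, which may share its reads. DNAJA2 fell 1.06-fold, from 128.7 ± 2.47 to 120.9 ± 1.96 FPKM (limma adjusted p = 0.0316), a call lost without DMSO replicate 2 or 3 or without GK921 replicate 1 or 2 (limma adjusted p = 0.0723, 0.106, 0.0779 and 0.0686). DNAJB6, which keeps amyloid-forming proteins soluble, was at 59.2 ± 1.32 and 60.9 ± 3.69 FPKM (limma adjusted p = 0.497), and with median-ratio scaling it was called lower (log2 change -0.13). DNAJA1 and DNAJB6, the members whose windows hold the heat shock element, were not among those that rose.

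Class C members with more specialised tasks followed no common direction. DNAJC24, needed to make the diphthamide residue of an elongation factor, rose 1.65-fold, from 25.6 ± 1.3 to 42.2 ± 3.26 FPKM. DNAJC21, a factor of large ribosomal subunit maturation, rose 1.46-fold, and DNAJC2, which sits on ribosomes and meets nascent chains, rose 1.23-fold. DNAJC7, whose repeats link Hsp70 with Hsp90, fell 1.17-fold, from 110.4 ± 1.34 to 94.6 ± 5.81 FPKM. DNAJC12, a partner of the aromatic amino acid hydroxylases, was at 40.7 ± 3.17 and 43.3 ± 4.54 FPKM with overlapping groups (limma adjusted p = 0.383).

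Of the 3 nuclear members 2 fell and 1 rose, beside 29.2% of all tested genes called lower and 46.8% higher. DNAJC9, a histone chaperone that recruits Hsp70 to histones H3 and H4, was at 86.4, 86.5 and 84.3 FPKM in DMSO and at 36.3, 46.6 and 40.3 FPKM after GK921. The treated libraries spread widely, and each was far below the controls. DNAJC9 fell 2.09-fold (log2 change -1.05 ± 0.079, limma adjusted p = 2.61e-06). Its exons overlap those of MRPS16 on the same strand, at 185.4 ± 6.88 and 173.6 ± 12.2 FPKM and not called, and those of FAM149B1 on the other strand, which rose. DNAJC8, which encodes a spliceosome-associated protein and is the most abundant of the 3, was at 159, 156 and 153 FPKM in DMSO and at 139.8, 139.7 and 140.3 FPKM after GK921, a 1.11-fold fall. DNAJC17, also of splicing, was at 4.99, 5.83 and 5.72 FPKM in DMSO and at 8.55, 8.5 and 8.56 FPKM after GK921, a 1.55-fold rise (limma adjusted p = 0.000308). In neither DNAJC8 nor DNAJC17 did the groups overlap, as for 78% of all tested genes. Exons of DNAJC17 overlap those of ZFYVE19, C15orf62 and GCHFR on the opposite strand. ZFYVE19 rose from 8.33 ± 0.351 to 12.9 ± 0.440 FPKM and C15orf62 from 1.00 ± 0.385 to 1.97 ± 0.686 FPKM. GCHFR fell from 28.9 ± 5.04 to 12.5 ± 1.41 FPKM. Reads of these overlaps cannot be told apart, and their part in the rise of DNAJC17 was not tested.

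Mitochondrial members showed no common direction. Of 6 tested, 2 rose (33.3%), 2 fell (33.3%) and 2 were not called, beside 46.8% of all tested genes called higher and 29.2% lower. The median log2 change was 0.017 (-0.15 with median-ratio scaling), below the 0.16 of all tested genes (-0.0040 with that scaling). DNAJC11, which is tied to cristae organisation, was at 38.2, 34.9 and 37.6 FPKM in DMSO and at 26.2, 25.6 and 23.2 FPKM after GK921, and its groups were well apart. It fell 1.48-fold (log2 change -0.54 ± 0.063, limma adjusted p = 4.54e-05). DNAJC19, a subunit of the motor that pulls proteins into the matrix, was at 68.8, 65.1 and 66.4 FPKM in DMSO and at 85.1, 85.8 and 99.9 FPKM after GK921. It rose 1.35-fold (log2 change 0.43 ± 0.062, limma adjusted p = 0.000218), and GENCODE names 9 pseudogenes of it that may share its reads. Its paralog DNAJC15, known to restrain respiratory complex I, went the other way, from 29.6 ± 3.52 to 21.2 ± 1.5 FPKM, a 1.39-fold fall. DNAJC4, at a lower level, was at 6.34, 8.31 and 7.59 FPKM in DMSO and at 10.1, 10.9 and 10.9 FPKM after GK921, a 1.43-fold rise without overlap. Exons of DNAJC4 overlap those of the more abundant NUDT22 on the same strand, at 25.3 ± 1.73 and 21.9 ± 3.59 FPKM and not called. DNAJA3 (TID1), partner of the mitochondrial Hsp70 in the matrix, was at 60.9 ± 1.71 and 58.7 ± 5.71 FPKM (limma adjusted p = 0.45). It was called lower with median-ratio scaling (log2 change -0.23) and without GK921 replicate 2 (log2 change -0.13, limma adjusted p = 0.0296). DNAJC30, which acts on complex I and its repair, was at 20.5 ± 0.276 and 21.9 ± 1.96 FPKM (limma adjusted p = 0.266).

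Both tested genes of vesicles and endosomes fell, beside 29.2% of all tested genes called lower. DNAJC5, the cysteine string protein of secretory vesicles, was at 79.2, 80.5 and 71.6 FPKM in DMSO and at 53.5, 47.5 and 50.6 FPKM after GK921, a 1.53-fold fall (log2 change -0.60 ± 0.060, limma adjusted p = 1.85e-05). DNAJC13, which acts with Hsp70 in endosomal sorting, fell 1.17-fold, from 41.5 ± 0.611 to 35.3 ± 1.15 FPKM. Neither gene had overlapping groups, nor had 78% of all tested genes.

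Among the other members DNAJC22 fell and DNAJC25 and DNAJC27 rose. DNAJC22, which encodes a predicted membrane protein, was at 84.2, 76.4 and 80.8 FPKM in DMSO and at 32.8, 31.9 and 31.5 FPKM after GK921. Its fall of 2.51-fold was the largest among the tested members (log2 change -1.30 ± 0.048, limma adjusted p = 2.57e-08). DNAJC25, also a predicted membrane protein, was at 20.8, 25.4 and 22.4 FPKM in DMSO and at 55.7, 56.9 and 56.9 FPKM after GK921, a 2.47-fold rise (log2 change 1.27 ± 0.069, limma adjusted p = 3.22e-07). It shares exons with the readthrough gene DNAJC25-GNG10, which is listed at 0 throughout. DNAJC27, a J-domain protein with a small GTPase part, was at 0.48, 0.1 and 1.1 FPKM in DMSO and at 0.87, 1.99 and 2 FPKM after GK921, with overlapping groups. Its call (limma adjusted p = 0.0303) was lost without DMSO replicate 1 or 2 (limma adjusted p = 0.067 and 0.103) and with quantile normalization.

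**Figure D3:**
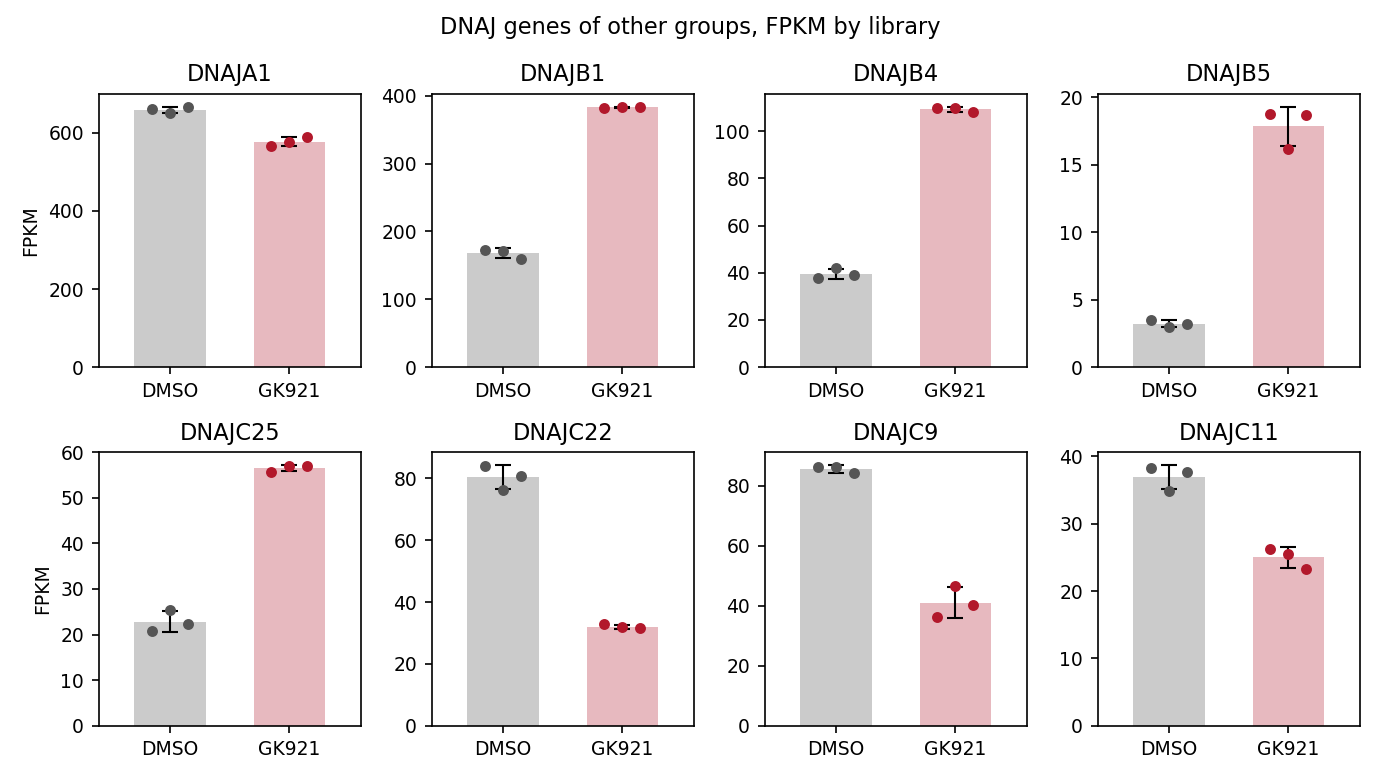
FPKM (y axis, from 0, a scale of its own in each panel) of 8 DNAJ genes outside the ER lumen and membrane groups in the 3 DMSO and 3 GK921 libraries, as points, with bars for group means and whiskers for the SD. DNAJB1, DNAJB4, DNAJB5 and DNAJC25 lie higher after GK921 and DNAJC22, DNAJC9, DNAJC11 and, by 1.14-fold on this scale but not with quantile normalization, DNAJA1 lie lower.

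Because FPKM is per length, members can be summed within a library. The 45 members summed to 2487, 2471 and 2468 FPKM in DMSO and 3407, 3488 and 3497 FPKM after GK921, 1.4-fold higher. The ER lumen genes held 11.9, 12.2 and 11.9% of that sum in DMSO and 31.1, 31.6 and 31.1% after GK921. DNAJB9 alone went from 4.02 ± 0.163% to 18.4 ± 0.347%. The cytosolic share was 56.7 ± 0.277% in DMSO and 48.7 ± 0.498% after GK921, although the cytosolic sum itself was 1.2-fold higher. The mitochondrial sum, 223 ± 2.78 FPKM in DMSO, stood at 228 ± 6.11 FPKM after GK921, and its values overlapped (exact two-sided permutation p = 0.3). For the other sums and shares named here the groups did not overlap and the exact two-sided permutation p was 0.1, the smallest that 3 against 3 libraries allow.

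**Figure D4:**
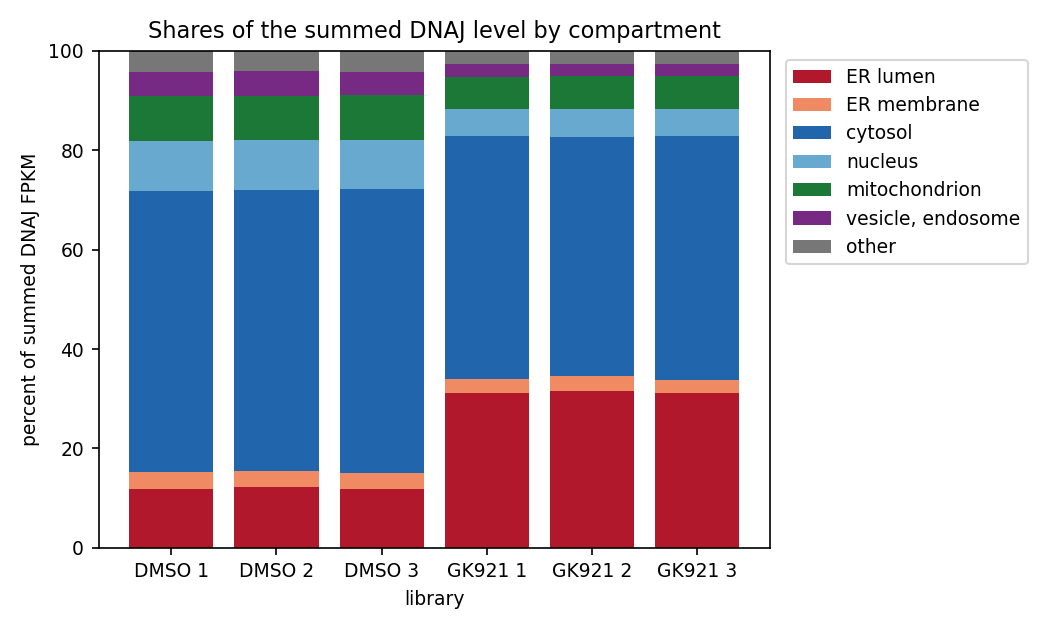
Percent of the summed DNAJ FPKM (y axis, 0 to 100) held by each compartment in each of the 6 libraries (x axis), as stacked bars. The ER lumen part goes from about 12.0% in the DMSO libraries to about 31.3% in the GK921 libraries, and the 3 libraries of a group look alike.

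Partner genes were counted from lists of Hsp70 genes, exchange factors and other helpers, written from textbook knowledge. All 13 ER partners rose (12 with median-ratio scaling), beside 46.8% of all tested genes called higher (36.4% with median-ratio scaling). Their median log2 change was 1.28. HSPA5 rose 7.83-fold, from 1038 to 8127 FPKM (limma adjusted p = 6.17e-12). Of the others, SDF2L1, which binds DNAJB11, rose 4.81-fold, the exchange factor gene HYOU1 4.27-fold and the Hsp70 gene HSPA13 4-fold. Of 20 tested cytosolic partners 7 rose, 7 fell and 6 were not called (median log2 change 0.066), and with median-ratio scaling 7 rose and 10 fell (median -0.11). The inducible Hsp70 gene HSPA6, which passed the 1 FPKM limit only through its GK921 libraries, was at 0.437 ± 0.0416 and 9.4 ± 0.341 FPKM. HSPA1A and HSPA1B, nearly the same in sequence so that reads can be shared, were 2.43-fold and 2.28-fold higher, and HSPA8, the constitutive Hsp70 gene, fell 1.65-fold from 1736 ± 17.9 to 1054 ± 4.66 FPKM. Of 13 mitochondrial partners 3 rose, 6 fell and 4 were not called (median log2 change 0.081, or -0.094 with median-ratio scaling). Both medians lie below the 0.16 of all tested genes, of which 46.8% were called higher and 29.2% lower. TIMM21 of the import channel fell 2.06-fold, the chaperonin genes HSPE1 and HSPD1 fell 1.86-fold and 1.83-fold, and TIMM17B rose 1.41-fold. Among J-protein genes with other symbols, HSCB of iron-sulphur cluster assembly and SEC63 of the ER translocation channel rose 2.29-fold and 2.15-fold, and GAK was at 29.7 and 29.3 FPKM and not called, but lower with median-ratio scaling.

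Set against Hsp70 genes of the same compartment, the summed members changed differently. Each sum takes every member of its group, whether or not its protein works with that Hsp70. J-protein genes with other symbols, such as SEC63 and HSCB, are not in the sums. The ER lumen members stood at 28.7, 29.3 and 27.9 FPKM per 100 FPKM of HSPA5 in DMSO and at 13.1, 13.8 and 13.2 after GK921, 2.15-fold lower, since HSPA5 rose by more than each of its 5 co-chaperone genes. The cytosolic members stood at 73.5, 74.0 and 73.5 FPKM per 100 FPKM of HSPA8, HSPA1A and HSPA1B together in DMSO and at 113.8, 116.4 and 118.6 after GK921, 1.58-fold higher. The mitochondrial members stood at 59.2, 58.0 and 61.1 FPKM per 100 FPKM of HSPA9, the matrix Hsp70, in DMSO and at 48.8, 50.1 and 48.9 after GK921, 1.21-fold lower. Their sum overlapped between the groups, while HSPA9 was 1.24-fold higher, at 375 ± 5.11 FPKM in DMSO and 464 ± 9.57 FPKM after GK921. HSPA9 was called higher (limma adjusted p = 6.88e-06), but not in the test against a 1.2-fold change (treat adjusted p = 0.134). In each of the 3 ratios the groups did not overlap, with an exact two-sided permutation p of 0.1. Scaling a library by a factor leaves such ratios as they are. They compare mRNA levels, and protein was not measured.

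**Figure D5:**
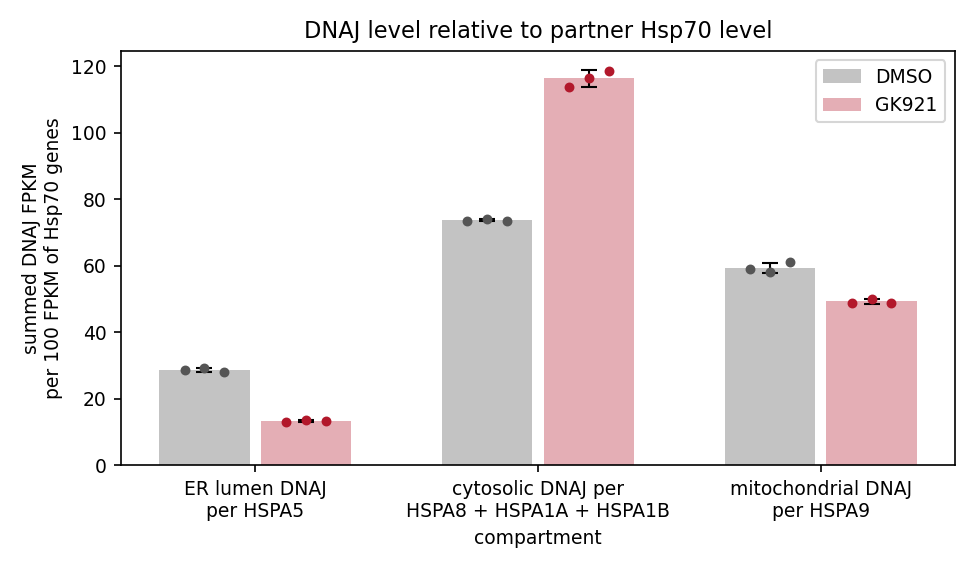
Summed DNAJ FPKM per 100 FPKM of Hsp70 genes of the same compartment (y axis, from 0) for 3 compartments (x axis), with points for the 3 libraries of each group, bars for group means and whiskers for the SD. The ER lumen and mitochondrial ratios are lower after GK921 and the cytosolic ratio is higher.

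In GRCh38 coordinates, DNAJB11 lies on chromosome 3 at 186567403 to 186585800, DNAJC10 on chromosome 2 at 182716041 to 182794464, DNAJC3 on chromosome 13 at 95677139 to 95794989 and DNAJC1 on chromosome 10 at 21756537 to 22003769. Outside the ER, DNAJB1 lies on chromosome 19 at 14514770 to 14529770, DNAJB4 on chromosome 1 at 77979175 to 78017964, DNAJB5 on chromosome 9 at 34989641 to 34998900 and DNAJA1 on the same chromosome at 33025211 to 33039907. The tested members with the largest falls, DNAJC9 and DNAJC22, lie on chromosome 10 at 73183362 to 73248862 and on chromosome 12 at 49346917 to 49357546. Exons of 18 of the 36 tested members overlap those of another gene, 14 of them on the opposite strand, by GENCODE release 29, whose gene models need not be those behind the deposited values.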

How the data were processed

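Gene levels came from RNA sequencing of 6 libraries, grouped and numbered by their titles. The authors deposited FPKM per gene symbol with 2 decimals, per the file headers. The build hg38 and the tools edgeR, featureCounts, HISAT2 and FastQC (0.11.5) are listed, without roles, in the submitters' processing notes. The sources used here give neither the annotation nor any use of strand. FPKM is relative to the mapped fragments, so a change in RNA per cell is not visible in it.

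Values were used as deposited. Genes whose mean reached 1 FPKM were fitted on log2(FPKM + 1) with limma (version 3.58.1, R 4.3.3), with treatment as the only term and an intensity trend. P-values were adjusted by the Benjamini-Hochberg method over all tested genes and called at 0.05. Log2 changes understate those of low genes, and folds are ratios of mean FPKM. Sums and ratios were compared by exact permutation (SciPy 1.17.1). Relative depth came from the commonest ratio of values between 0.25 and 2 FPKM in each pair of libraries.

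Each member could be named. Values by library were given for the ER lumen members and, in the other groups, the largest called changes and the most abundant gene. Up to 4 called partners a list were named. Members, lists, ratios and motifs were chosen with earlier results of these data known. The fit was tested on simulated data of 11320 genes, with 50 genes changed at each size. It recovered 40% of changes of 1.2-fold, 70% of 1.5-fold, 92% of 2-fold and 96% of 4-fold, and 6.29% of its calls were false. Far fewer genes changed there than were called in the data. Other pseudocounts, level limits, scalings, leaving out each library, a replicate block, array weights, no trend and limma's treat test at 1.2-fold were tried. Some genes of the lists are not reported here.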

Additional observations from a re-analysis of the deposited data

How the results depend on the processing

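Across the alternatives run, 20 of the 36 tested members kept their direction and their side of the threshold in each one in which they were tested. Of the 20 members called higher, 18 were also called higher under each of the 4 rescalings (not DNAJB14 and DNAJC27) and 19 without each library in turn (not DNAJC27). Of the 10 called lower, 8 were called lower under each rescaling (not DNAJA1 and DNAJA2) and 9 without each library (not DNAJA2). All 5 ER lumen members were called higher under each alternative.

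With a test against a 1.2-fold change (treat), which asks for more, 5730 genes were called (3595 higher and 2135 lower). It called 16 members higher and 4 lower, 0 cytosolic members lower, and 1 mitochondrial member each way.

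The median log2 change was 0.27 for the members and 1.14 and 0.39 for the ER lumen and cytosolic groups with a pseudocount of 5. It was 0.29 for the members with a mean of at least 5 FPKM, and with no filter 0.23 for the members, 0.19 for the cytosolic and 0.091 for the mitochondrial group. For the members, the ER lumen, the cytosolic and the mitochondrial group it was 0.12, 1.14, 0.24 and -0.15 with median-ratio scaling, 0.25, 1.2, 0.30 and -0.092 with upper-quartile scaling, and 0.28, 1.18, 0.36 and -0.092 with quantile normalization. With equal totals it was 0.37 for the members. The level limit was applied after scaling, so DNAJB7 joined the tested members under median-ratio and quantile scaling. Over the same 36 members those medians were 0.19 and 0.28. Leaving out each library gave medians of 0.29 to 0.37 for the members, 1.25 to 1.31 for the ER lumen, 0.39 to 0.43 for the cytosolic and -0.051 to 0.063 for the mitochondrial group, 19 to 21 members higher and 9 to 10 lower, and 2 to 3 cytosolic and 2 to 3 mitochondrial members lower.

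Some changes near 0 turned sign. Under the median-ratio, upper-quartile and quantile scalings in that order, the log2 change was -0.088, -0.026 and -0.021 for DNAJC12, -0.078, -0.017 and -0.050 for DNAJC30, and -0.13, -0.071 and -0.030 for DNAJB6, which ranged from -0.0096 to 0.064 when each library was left out. It was -0.0017 for DNAJB12 with median-ratio scaling and 0.030 for DNAJA1 with quantile normalization. The cause was not tested.

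Replicate numbers are shared by the groups, and deviations of same-numbered libraries correlated at 0.0305, 0.0473 and -0.00207. No broad shared effect was seen, but such values cannot tell whether same-numbered libraries shared a culture or a day. With the replicate block 8706 genes were called, and 20 members were higher and 10 lower as without it. Absolute depth is unknown, so no counting intervals could be set, and values of members under 1 FPKM are coarse.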
